A study of Mus musculus with 4 samples.

Results

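The plasma proteins made by yolk sac and liver, the apolipoproteins, and the receptors that take such proteins up again were compared between 2 tissues of the early mouse urogenital tract. Metanephric mesenchyme (MM) is the source of the nephrons of the definitive kidney, and intermediate mesoderm (IM) is the earlier tissue from which kidneys and gonads form. The 35 genes were a given list, and every probe of a 22702-probe mouse oligonucleotide array whose platform annotation names 1 of them was taken. Of the 35 genes, 34 had a probe, with 40 probes in all, and Amn, the cubilin partner amnionless, had none. A value on all 4 arrays, the condition for a test, was present for 27 probes of 25 genes, and the other 9 genes are described by the values they have.

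Both groups were dissected primary tissue of mouse embryos of both sexes at 10.5 days post coitum (dpc), with no strain, allele or treatment named, and the number of embryos per sample is not given in the sources used here. Each of 4 arrays carried amplified RNA of both tissues, with MM in channel 1 on arrays 1 and 2 and in channel 2 on the second pair; these are called the first and the second pair, after the 2 orientations of the channels. On the second pair the labels exchange the words mesenchyme and mesoderm, which was taken as naming the same tissues. Values are log2 ratios of MM over IM, so a value of 1 is a 2-fold higher signal in MM. This direction is likely and not settled, since the labels put MM first and state that arrays 3 and 4 were already reversed, but do not give the dye of each channel. Whether the arrays came from separate dissections is not stated in the labels, so each p-value reflects the spread of these arrays alone, and that spread may be technical.

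The arrays of a pair were more alike than arrays of different pairs. Above the floor, Pearson's r over 13191 probes, which are not independent replicates, was 0.836 and 0.912 within orientations and 0.113 to 0.274 between them. Including probes at the floor, r between orientations was -0.349 to -0.26. The floor of -6.64, a ratio of 0.01, held 16 and 8 values on arrays 1 and 2 but 1672 and 1805 on the second pair, and a value there was not read as a fold. Of the 918 tested probes at the floor on both arrays 3 and 4, 76.9% were above 0 on both arrays 1 and 2, against 36.1% of the tested probes without a floor value. The MM genes Six2 (log2 ratio 3.00 ± 0.63, SD, n = 4) and Gdnf (1.92 ± 0.13) were higher in the tissue labelled MM. Wt1, a gene of MM and also of gonad, was lower (-1.57 ± 0.02), so these genes did not share a direction.

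Plasma proteins such as alpha-fetoprotein, transthyretin, transferrin and apolipoprotein A-I are secreted by the visceral endoderm of the yolk sac and then by the liver, under transcription factors that include Hnf1, Hnf4a and the forkhead factors Foxa. Cubilin and megalin (Lrp2) are large endocytic receptors on the apical surface of yolk sac endoderm and of the later kidney proximal tubule, where with the adaptor Dab2 they recover proteins and bound vitamins. Neither MM nor IM is a known main source of these plasma proteins. In such dissected pieces, fewer cells of a type and less RNA per cell cannot be told apart.

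The upstream sequences of 4 genes are shown because they carry the contrasts described next: Afp and Alb are adjacent relatives of which Afp alone was clearly higher in MM, and Apoa1 and Apom are both apolipoproteins of high-density lipoprotein with opposite ratios. Each is the 250 bases before the annotated start, read 5′ to 3′ on the gene's strand, from RefSeq's GRCm38.p6; capitals mark GTTAAT (an Hnf1 half-site) and TGTTTNC (a forkhead motif) on either strand, and no motif shown overlaps another. The regions are chr5:90490464-90490713 (plus strand) for Afp, chr5:90460620-90460869 (plus strand) for Alb, chr9:46228380-46228629 (plus strand) for Apoa1 and chr17:35131802-35132051 (minus strand) for Apom.
Afp: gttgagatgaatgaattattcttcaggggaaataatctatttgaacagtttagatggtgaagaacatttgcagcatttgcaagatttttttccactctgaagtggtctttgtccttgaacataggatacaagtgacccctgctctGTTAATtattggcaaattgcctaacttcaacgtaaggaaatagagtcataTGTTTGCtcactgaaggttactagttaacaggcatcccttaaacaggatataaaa
Alb: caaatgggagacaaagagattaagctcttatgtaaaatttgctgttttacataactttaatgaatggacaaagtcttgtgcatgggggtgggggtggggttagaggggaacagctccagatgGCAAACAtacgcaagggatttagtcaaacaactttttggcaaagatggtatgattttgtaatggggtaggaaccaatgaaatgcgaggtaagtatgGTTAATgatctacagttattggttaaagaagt
Apoa1: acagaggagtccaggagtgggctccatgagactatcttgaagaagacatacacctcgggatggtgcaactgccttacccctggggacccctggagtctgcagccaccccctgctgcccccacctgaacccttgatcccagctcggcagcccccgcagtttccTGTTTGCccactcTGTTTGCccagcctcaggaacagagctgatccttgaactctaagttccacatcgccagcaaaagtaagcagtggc
Apom: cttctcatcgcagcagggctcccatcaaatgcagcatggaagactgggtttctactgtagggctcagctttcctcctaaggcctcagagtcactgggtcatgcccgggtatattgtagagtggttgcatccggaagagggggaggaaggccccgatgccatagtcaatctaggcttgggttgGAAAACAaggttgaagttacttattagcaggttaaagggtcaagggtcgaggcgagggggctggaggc
Afp and Alb each held 1 match to each motif, Apoa1 held 2 forkhead matches, and Apom held 1 forkhead match. Windows were found for 32 of the 35 genes, some with several starts. Among these 32 genes, GTTAAT was in a window of 9 (28.1%), against 7.49% of 27025 genes in the table, and TGTTTNC in 16 (50%), against 19.9%. The Hnf4 motif CAAAGTCCA was in 0 of the 32 and in 0.451% of all genes, and TATAAA on the gene's strand was in 6 (18.8%), against 8.94%. Among genes with a window, GTTAAT was in 2 of the 7 that were higher in MM in both fits given next and in 1 of the 2 that were lower, and TGTTTNC in 5 of the 7 and in 1 of the 2. A match is a description of these letters and not a bound site.

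Of the 25 tested genes, 11 were higher in MM, 7 were lower, 1 (Trf) had a probe called in each direction, and the remaining 6 missed the threshold, an adjusted p of 0.05 in limma with a term for channel orientation. That term takes the difference between the pairs out of the error. P-values with the term therefore rest on the spread within pairs, not on the SD over 4 arrays. Over all 10866 named genes tested, the same fit called 26.6% higher and 38% lower, so that calls were common everywhere. In both fits, with and without the orientation term, 9 genes were higher: Afp, Ttr, Trf, Rbp4, Selenop, Apoa1, Serpina1a, Cubn and Hhex. Apoc1, Apom and Dab2 were lower in both fits. The background in both fits was 16% higher and 15.4% lower. By mean ratio, 8 of the 25 reached a 2-fold higher signal in MM, against 5.86% of all genes, and 3 a 2-fold lower one, against 6.4%; 1 of these 3 (Prox1) did so through values at the floor. Trf is not among the 8 because its mean over probes includes probe 1, with its floor values. With orientation as a random block, 5 genes passed as higher (Afp, Trf, Rbp4, Cubn and Hhex; 4.31% of all genes) and 0 as lower (1.46% of all genes). The other 7 of the 12 genes called in both fits had adjusted p of 0.0591 (Apom) to 0.177 (Serpina1a) there. The median log2 ratio of the 25 genes was 0.15, against -0.07 for all genes tested, and was 0.33 on the first pair and 0.12 on the second pair, where all genes had -0.04 on each pair. Counted by probe over all 14184 tested, the shares were 23.8% higher and 38.1% lower with the orientation term, 13.6% and 14.4% in both fits, and 3.56% and 1.35% with the random block.

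**Figure D1:**
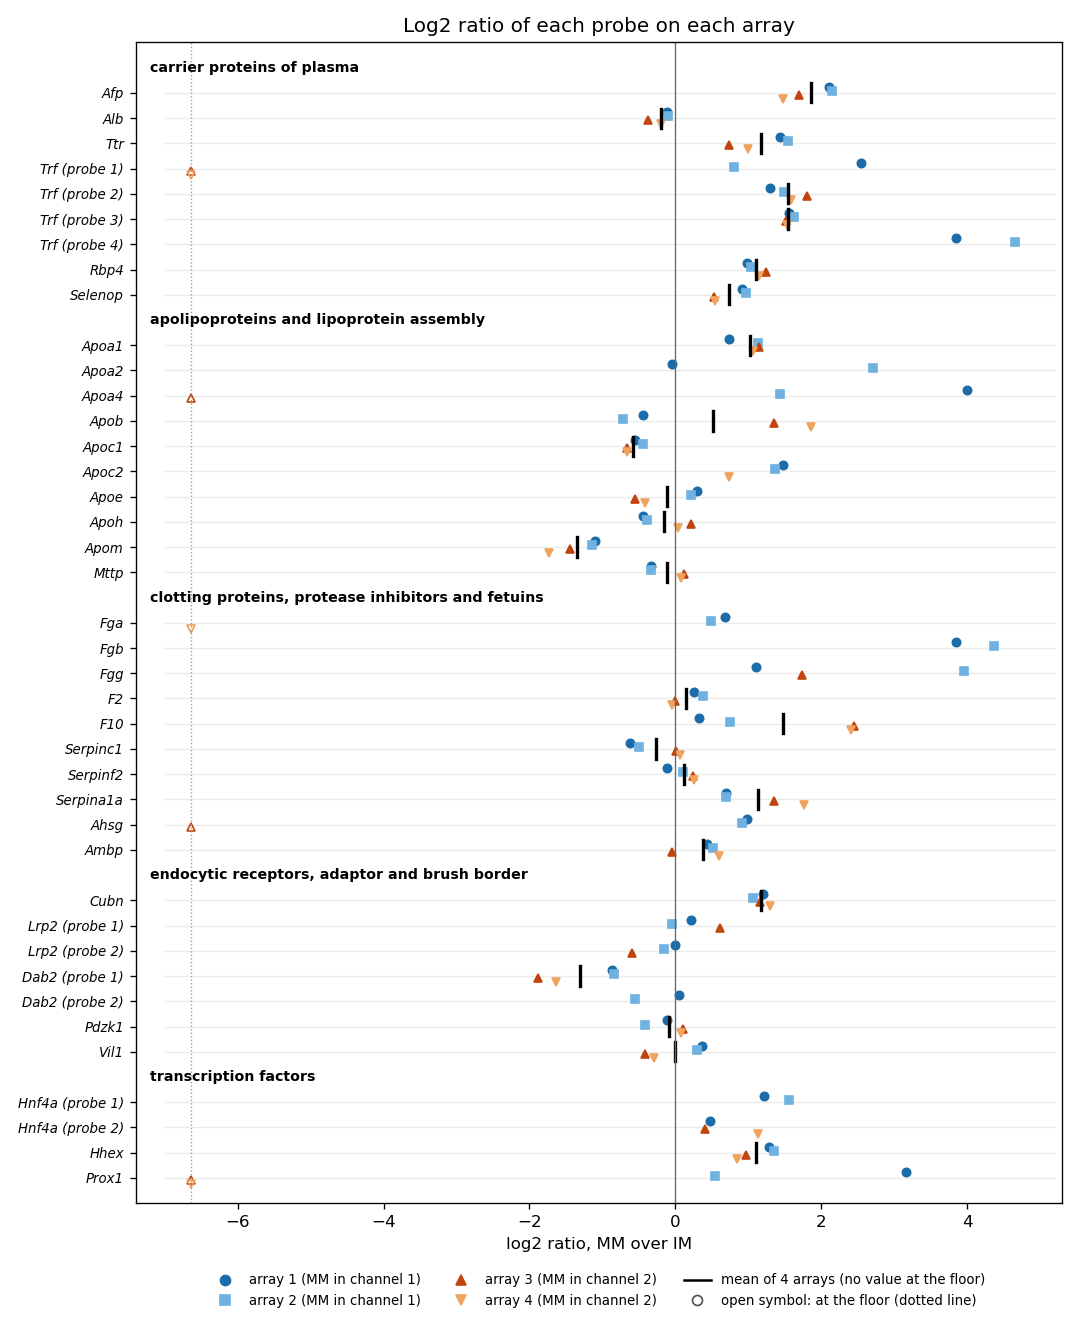
Log2 ratio (MM over IM, horizontal axis) of each of the 40 probes on each array, grouped by the role of the gene; symbols stand for arrays, black bars for the mean of 4 arrays where no value is at the floor, and open symbols on the dotted line for values at the floor of -6.64. All 4 arrays lie right of 0 for Afp, Ttr, Trf probes 2 and 3, Rbp4, Selenop, Apoa1, F10, Serpina1a, Cubn and Hhex. All 4 lie left of 0 for Alb, Apom, Apoc1 and Dab2 probe 1. Apob, Apoe and Vil1 are among those that split by orientation.

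The carriers of plasma were mostly higher in MM. Of these 6 genes, all tested, 4 were higher (66.7%, against 26.6% of all genes) and 1 (Alb) was lower (16.7%, against 38%). Trf had probes in both directions. In both fits, 5 of the 6 were higher and 0 lower. Their median log2 ratio was 0.92, and 1.10 without Trf, 1 probe of which had values at the floor. Afp encodes alpha-fetoprotein, the main plasma protein of the early embryo. Its log2 ratios were 2.11 and 2.15 on the first pair and 1.69 and 1.48 on the second pair. All 4 were well above 0, and the second pair was the lower one. The mean was 1.86 ± 0.32 (SD, n = 4), a 3.62-fold higher signal in MM, with a limma adjusted p of 0.000533 with the orientation term, 0.00456 without it and 0.0333 with the random block. This mean was above that of 98.7% of the tested probes.

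Albumin, which replaces alpha-fetoprotein in later plasma, did not share this ratio, although Alb is the gene next to Afp with no protein-coding gene between them. Its values were -0.12, -0.10, -0.37 and -0.20. All 4 arrays were slightly below 0, and every one lay below the lowest value of Afp. The mean of -0.20 ± 0.12 passed with the orientation term (adjusted p = 0.0264) but not without it (0.111), not with arrays centred on their medians (-0.16, adjusted p = 0.0559), and not when any 1 array was left out (adjusted p = 0.056 to 0.145, with means of -0.24 to -0.15).

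Transferrin, the iron carrier, was measured by 4 probes that did not behave alike. Trf probe 3 read 1.56, 1.62, 1.51 and 1.53, among the tightest sets of the list. Trf probe 2 read 1.30, 1.49, 1.80 and 1.58, so these 2 probes lie in the same range on all arrays. Their means were 1.55 ± 0.05 and 1.54 ± 0.21 (n = 4), a 2.93-fold and a 2.91-fold higher signal in MM, with limma adjusted p of 0.00033 and 0.000982, and 0.0209 and 0.0455 with the random block. Trf probe 1 read 2.54 and 0.80 on the first pair, with both values of the second pair at the floor, and Trf probe 4 read 3.85 and 4.65 on arrays 1 and 2 with no value on the others. All 4 probes were thus above 0 on arrays 1 and 2, and the call of probe 1 as lower (adjusted p = 0.00978) rests on the floor. It was lost without array 3 (adjusted p = 0.0742) or without array 4 (0.0709).

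Transthyretin, the carrier of thyroid hormone and of retinol-binding protein, and Rbp4, the retinol carrier itself, were both higher in MM. Ttr read 1.43 and 1.54 on the first pair and 0.73 and 0.99 on the second pair, with a mean of 1.17 ± 0.38 (adjusted p = 0.00148, and 0.0157 without the orientation term). Rbp4 read 0.98, 1.04, 1.24 and 1.14, with a mean of 1.10 ± 0.11 (adjusted p = 0.000705 and 0.00284). The fold was similar, at 2.25 and 2.15, while the arrays of the 2 orientations overlapped for neither gene and differed in opposite order. Ttr did not pass with the random block (adjusted p = 0.0926) and Rbp4 did (0.0329). Selenop, the selenium transport protein of plasma, read 0.92, 0.97, 0.53 and 0.54 and was higher by 0.74 ± 0.24 (adjusted p = 0.000859, 0.0173 without the term and 0.0665 with the block).

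Retinol-binding protein is bound by the receptor Stra6 and transferrin by Tfrc, and neither receptor gene had a ratio like that of its ligand. Stra6 averaged -0.23 ± 0.23 and passed with the orientation term only (adjusted p = 0.00847, and 0.213 without it). The 2 probes of Tfrc gave 0.05 ± 0.07 (adjusted p = 0.256) and -0.25 ± 0.06 (adjusted p = 0.012, and 0.0294 without the orientation term).

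Apolipoproteins, the protein coats of lipoprotein particles, went in both directions, at shares near those of all genes. Of 7 tested genes in this group of 10, 2 were higher (28.6%, against 26.6% of all genes) and 3 were lower (42.9%, against 38%). The remaining 2 did not pass, and in both fits 1 of the 7 was higher and 2 were lower. Their median log2 ratio was -0.12. Apoa1, the main protein of high-density lipoprotein, read 0.73, 1.13, 1.15 and 1.06. All arrays were above 0, and array 1 was the lowest. The mean of 1.02 ± 0.20 is a 2.02-fold higher signal in MM (adjusted p = 0.00327, 0.00614 without the orientation term and 0.14 with the random block).

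Apom, a lipocalin carried on high-density lipoprotein, had the opposite sign. It read -1.10 and -1.14 on the first pair and -1.45 and -1.73 on the second pair, so no array of Apom came near any array of Apoa1. The mean was -1.35 ± 0.29, a 2.56-fold lower signal in MM (adjusted p = 0.00114, 0.00701 without the orientation term and 0.0591 with the random block). Apoc1, an inhibitor of lipoprotein uptake, was lower by a smaller amount, at -0.56, -0.44, -0.67 and -0.66 (mean -0.58 ± 0.11, adjusted p = 0.00183, 0.00778 and 0.0852).

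Apob and Mttp, which together build the lipid-rich particles secreted by yolk sac and liver, changed sign with the orientation. Apob, the structural protein of these particles, read -0.44 and -0.72 on the first pair and 1.35 and 1.86 on the second pair. Its call as higher (mean 0.51 ± 1.28, adjusted p = 0.0308) was absent without the orientation term (0.573) and lost without array 1 (0.44, adjusted p = 0.194), without array 2 (0.58, 0.139) or without array 4 (0.39, 0.0845). Mttp, the microsomal transfer protein that loads lipid onto it, read -0.33, -0.34, 0.12 and 0.08. Its mean of -0.12 ± 0.25 passed with the orientation term (adjusted p = 0.0299) and not without it (0.534), not with arrays centred (-0.08, adjusted p = 0.0743), and not when any 1 array was left out (-0.13 to -0.11, adjusted p = 0.0606 to 0.159).

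Apoe, a ligand of the low-density lipoprotein receptor family, and Apoh, a phospholipid-binding plasma protein, did not pass. Apoe read 0.30, 0.21, -0.55 and -0.41 (mean -0.11 ± 0.43, adjusted p = 0.0877). Apoh read -0.44, -0.39, 0.22 and 0.03 (mean -0.15 ± 0.32, adjusted p = 0.0697). For both, the arrays of the 2 orientations lay on opposite sides of 0 and did not overlap.

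Apoa2, Apoa4 and Apoc2 lacked values on arrays 3 or 4 and were not tested. Apoa2, the second protein of high-density lipoprotein, read -0.05 on array 1 and 2.71 on array 2. Apoa4, an intestinal and hepatic apolipoprotein, read 4.00 and 1.43 on the first pair, with array 3 at the floor. Apoc2, the activator of lipoprotein lipase, read 1.47, 1.36 and, on array 4, 0.74. Only Apoc2 was above 0 in both orientations.

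Several of these genes sit beside one another, and the neighbours did not share a ratio in every case. In the cluster that runs from Apoe through Apoc1 and Apoc4 to Apoc2, Apoc1 was lower on all 4 arrays, Apoe split by orientation and Apoc2 was above 0 on its 3 arrays. Apoc4, which is not on the list, read 3.02 and 0.64 on the first pair, with array 3 at the floor. In the cluster of Apoa1, Apoc3 and Apoa4, only Apoa1 was measured on all arrays, and Apoc3, also outside the list, read 0.80, 0.83 and, on array 4, -0.73.

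**Figure D2:**
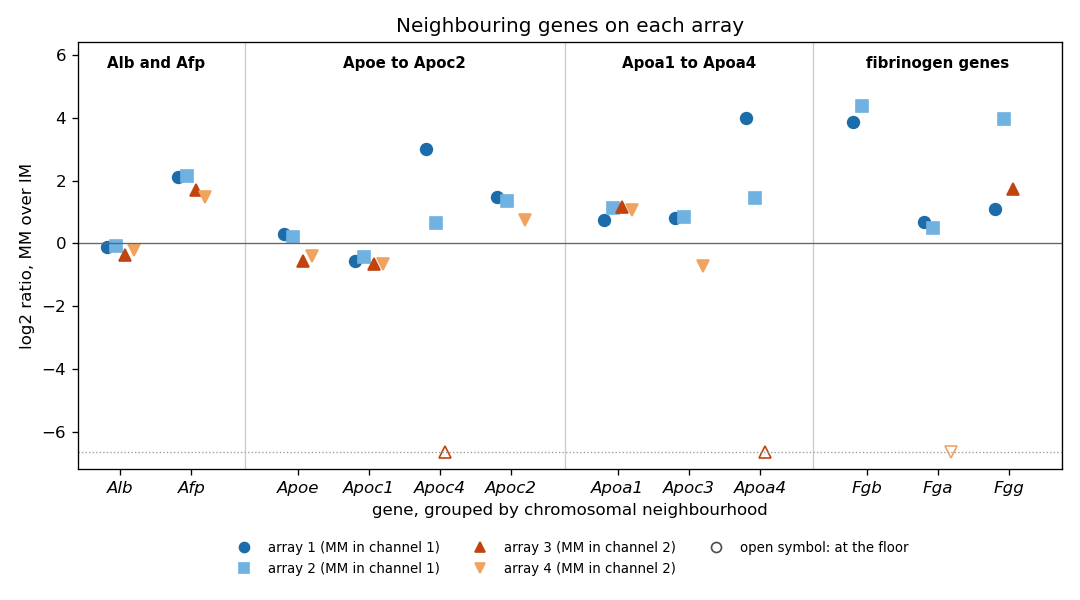
Log2 ratio (MM over IM, vertical axis) on each array for genes grouped by chromosomal neighbourhood (horizontal axis); symbols stand for arrays and open symbols for the floor of -6.64. Afp lies at 1.48 to 2.15 beside Alb at -0.37 to -0.10, and most values of Apoc4, Apoa4 and the fibrinogen genes come from arrays 1 and 2.

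Clotting proteins and protease inhibitors, made mainly by hepatocytes, were less evenly measured. Of 10 genes, 6 were tested. Of these, 3 were higher (50%, against 26.6% of all genes), 1 was lower (16.7%, against 38%) and 2 did not pass. In both fits 1 (Serpina1a) was higher. The 3 fibrinogen chains, which lie side by side, could not be tested. Fgb read 3.85 and 4.37 on arrays 1 and 2 alone. Fgg read 1.10, 3.96 and, on array 3, 1.74, and Fga read 0.68 and 0.49 with the floor on array 4. All 3 were above 0 on arrays 1 and 2, and only Fgg had a measured value on the others. Ahsg, the fetal plasma protein fetuin-A, had a like pattern, with 0.98 and 0.91 on the first pair and array 3 at the floor.

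Serpina1a, an alpha-1-antitrypsin gene that inhibits neutrophil elastase, read 0.70, 0.69, 1.35 and 1.77. The arrays were all above 0 and did not overlap between orientations. The mean was 1.13 ± 0.53, a 2.18-fold higher signal in MM (adjusted p = 0.0028, 0.0363 without the orientation term and 0.177 with the random block). The call was lost without array 1 (1.12, adjusted p = 0.0535) or without array 2 (1.13, 0.0521). Near-identical copies make this assignment uncertain, since probes of the family can bind the RNA of several copies. The probe of Serpina1e read 3.46, 2.88, 1.60 and 1.72, that of Serpina1d 1.62, 1.11, 0.32 and 0.31, that of Serpina1b 0.39, 0.23, 0.56 and 0.72, and that of Serpina1c 1.19, 0.97 and, on array 4, 1.02. Every measured value of these 5 genes was above 0.

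F10, the factor that cleaves prothrombin, and F2, prothrombin itself, both passed only with the orientation term. F10 read 0.32 and 0.75 on the first pair and 2.45 and 2.41 on the second pair. All were above 0, but the pairs were far apart, and the mean of 1.48 ± 1.11 had an adjusted p of 0.00183 with the term and 0.102 without it. F2 read 0.26, 0.38, -0.01 and -0.04 (mean 0.15 ± 0.20, adjusted p = 0.0331 and 0.349), and lost its call without array 3 (0.14, adjusted p = 0.163) or without array 4 (0.15, 0.142).

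The other tested genes of this group had small ratios. Serpinc1, antithrombin, read -0.62, -0.50, 0.01 and 0.07; its mean of -0.26 ± 0.35 passed with the orientation term (adjusted p = 0.0103, and 0.311 without it) and lost the call without array 3 (-0.24, 0.0806) or without array 4 (-0.28, 0.0653). Serpinf2, which inhibits plasmin, averaged 0.12 ± 0.17 (adjusted p = 0.131) and passed without array 1 (0.17, adjusted p = 0.0293), while without array 2 it was 0.06 (0.087). Ambp, the precursor of alpha-1-microglobulin and bikunin, averaged 0.38 ± 0.29 (adjusted p = 0.0795), with -0.04 on array 3 against 0.43 to 0.60 on the others, and passed without array 3 (0.54, adjusted p = 0.0324), while without array 4 it was 0.22 (0.0793).

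Of the 6 endocytic and brush border genes, 4 were tested, with a median log2 ratio of -0.05. In both fits 1 was higher and 1 lower (25% each with the term, against 26.6% and 38% of all genes). Cubn, the receptor that takes up albumin, transferrin and the intrinsic factor complex, was the one that was higher. It read 1.20, 1.06, 1.16 and 1.30, so the orientations overlapped. The mean was 1.18 ± 0.10, a 2.27-fold higher signal in MM (limma adjusted p = 0.000911 with the orientation term, 0.00239 without it and 0.0387 with the random block).

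Its partners did not show the same ratio. Lrp2, megalin, had 2 probes that read 0.21, -0.05 and 0.61 and, for the other, 0.00, -0.15 and -0.60 on arrays 1 to 3, with no value on array 4. The probes were near 0 on arrays 1 and 2 and of opposite sign on array 3. Dab2, the clathrin adaptor that binds megalin, was lower in MM by its tested probe, at -0.87 and -0.84 on the first pair and -1.89 and -1.64 on the second pair. Its mean of -1.31 ± 0.54 is a 2.48-fold lower signal (adjusted p = 0.00104, 0.0267 without the orientation term and 0.0933 with the random block). The other Dab2 probe read 0.05 and -0.55 on arrays 1 and 2 alone.

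Pdzk1 and Vil1 belong to the brush border, the microvilli on which these receptors act. Pdzk1, a scaffold that anchors transporters, read -0.11, -0.42, 0.10 and 0.08 (mean -0.09 ± 0.24, adjusted p = 0.335) and passed only without array 1 (-0.16, adjusted p = 0.0349), while without array 2 it was -0.01 (0.697). Vil1, the actin-bundling protein villin, read 0.36, 0.30, -0.41 and -0.29 (mean -0.01 ± 0.40, adjusted p = 0.81). Vil1 was above 0 on the first pair and below it on the second.

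Of the 3 transcription factors, 2 were tested, Hhex and Prox1. Hhex, which is needed for the liver bud and is expressed in early endoderm and endothelium, was higher in MM. It read 1.28, 1.35, 0.97 and 0.84, all above 0. The mean was 1.11 ± 0.25, a 2.15-fold higher signal (adjusted p = 0.000793, 0.00756 without the orientation term and 0.0472 with the random block). Hnf4a, a nuclear receptor that activates many plasma protein genes, was not tested, but its 5 values were all above 0: one probe read 1.22 and 1.56 on arrays 1 and 2, and the other 0.47 on array 1 and 0.40 and 1.13 on the second pair. Prox1, a homeobox factor of hepatoblasts and lymphatic endothelium, read 3.16 and 0.54 on the first pair, with both values of the second pair at the floor. Its call as lower (adjusted p = 0.0277) rests on the floor and was lost without array 3 (0.132) or without array 4 (0.131).

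**Figure D3:**
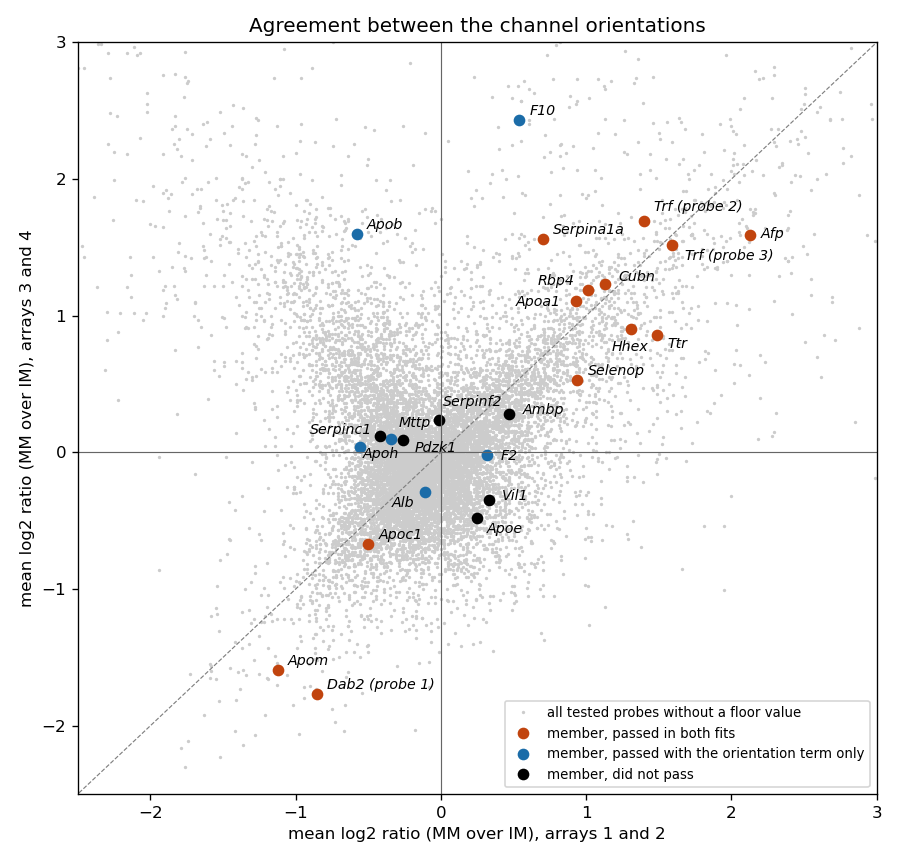
Mean log2 ratio (MM over IM) of arrays 1 and 2 (horizontal axis) against that of arrays 3 and 4 (vertical axis) for the 25 probes of listed genes tested without a floor value, over all such probes in grey within the plotted range; the dashed line marks equal values. Cubn, Rbp4, Apoa1 and Trf lie near the line at the upper right and Apom and Dab2 at the lower left, while Apob and F10 lie far above it.

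The orientations split the list. The orientation term passed for 16 of the 27 tested probes of the listed genes (6332 of all 14184). Among the 25 tested genes, 10 were above 0 on all 4 arrays by at least 1 probe (24.8% of all genes) and 4 were below 0 on all 4 (30.4% of all genes). By probe, the means of the pairs had opposite signs in 11 of the 27, 2 of them (Trf probe 1 and Prox1) through the floor. Counted by gene, with probes averaged, the means of the pairs had the same sign in 14 of the 25, against 61.1% of all genes tested. Trf and Prox1 counted as opposite here through the floor, although Trf probes 2 and 3 were above 0 on all 4 arrays. Of the 13 probes of listed genes that could not be tested, 12 had values on both arrays 1 and 2, and 8 of these 12 were above 0 on both. Over all untested probes with values on both of these arrays, 47.5% were.

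The genes were also grouped by a tissue in which each is known. The yolk sac group holds genes that are known from liver as well, such as Ttr, Trf, Apoa1 and Hhex. This grouping comes from general knowledge of the genes but was made with earlier results of these data known, so it is a description and no independent evidence for either tissue. Over all genes tested, 16% were higher and 15.4% lower in both fits. Of 19 yolk sac genes, 13 were tested and 7 were higher in both fits, with Trf, Afp, Ttr, Apoa1, Rbp4, Cubn and Hhex as these 7, and 2 (Apom and Dab2) were lower in both. Their median log2 ratio was 0.51, and 0.76 without Trf. Of 15 genes placed with liver only, 11 were tested, 2 (Selenop and Serpina1a) were higher and 1 (Apoc1) was lower in both fits, and the median was 0.12. The kidney tubule genes, 4 tested of 7 and mostly shared with the yolk sac list, had 1 higher (Cubn) and 1 lower (Dab2) in both fits and a median of -0.05. The lists overlap and are small, so no test of one against another was made.

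Wider lists of the same tissues, without the 35 genes, are given by their counts. The shares over all genes tested were 26.6% higher and 38% lower with the orientation term and 16% and 15.4% in both fits. With the random block they were 4.31% and 1.46%. Of 20 tested liver secreted proteins, 4 were higher and 9 lower with the orientation term (20% and 45%), 2 and 1 in both fits and 0 and 0 with the random block. The median was -0.09, and 5 of the 20 had a value at the floor. Without these 5 the median was -0.01. Spp2, a plasma phosphoprotein, was higher (0.76 ± 0.41, adjusted p = 0.00562, 0.0499 without the term and 0.271 with the block), and Pros1, protein S, was lower (-0.58 ± 0.06, adjusted p = 0.00137, 0.00465 and 0.0587). Of 20 tested genes of visceral endoderm and yolk sac, 7 were higher and 3 lower (35% and 15%), with a median of 0.02. The counts were 5 and 1 in both fits, and 0 and 0 with the random block. Slc39a8, a metal transporter (2.25 ± 1.05), the tight junction gene Cldn6 (2.10 ± 0.77) and the folate receptor Folr1 (1.90 ± 0.52) led the higher ones, with adjusted p of 0.127, 0.0939 and 0.109 with the random block. The 3 lower ones were Npl (-0.35 ± 0.21), Podxl (-0.24 ± 0.16) and Gata6 (-0.21 ± 0.07). Of these 3, only Gata6 also passed without the orientation term (adjusted p = 0.0464). Rhox5, a homeobox gene of visceral endoderm, was not tested and read -1.97 and -1.67 on the first pair and -2.99 on array 4.

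The wider kidney tubule list is mostly of the proximal tubule but also holds genes of later tubule segments. Of its 20 tested genes, 5 were higher (25%, against 26.6% of all genes) and 11 lower (55%, against 38%). In both fits 4 were higher and 2 lower (16% and 15.4% of all genes), and with the random block 1 and 0. The median was -0.31, and -0.07 without the 6 that had a value at the floor. Calb1, a calcium-binding protein of later tubule segments, led the higher ones at 2.06 ± 0.05 (adjusted p = 0.00025, 0.00154 without the term and 0.0209 with the block). Folr1 and Fbp1, an enzyme of gluconeogenesis (1.28 ± 0.56, adjusted p = 0.342 with the block), came next. The lower ones without a floor value were led by Kap, a kidney androgen-regulated protein (-0.69 ± 0.72), Mme, the brush border peptidase neprilysin (-0.69 ± 0.72), and Slc7a9, an amino acid transporter (-0.38 ± 0.19). These 3 passed with the orientation term (adjusted p = 0.00351, 0.00264 and 0.00539) and not without it (0.203, 0.2 and 0.0517). Hepatic and endodermal transcription factors had 3 higher and 5 lower of 15 tested (20% and 33.3%). The counts were 3 and 2 in both fits, and 0 and 1 with the random block. Sox17 of endoderm and endothelium (0.75 ± 0.07) and Xbp1 of secretory cells (0.43 ± 0.05) were higher in both fits but not with the block (adjusted p = 0.0507 and 0.0763), and Nr2f2, a nuclear receptor of mesenchyme and veins, was lower by a fold of 2 (adjusted p = 0.000801, 0.0031 and 0.037). Foxa1 had 2 probes that did not pass (0.31 ± 1.93 and -0.27 ± 0.25, adjusted p = 0.105 and 0.0533), and Foxa2, with 2 probes, was not tested: one read -3.65, 2.76 and 0.42 on arrays 1 to 3, and the other -1.54 and -0.68 with array 4 at the floor.

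Other receptors and adaptors of endocytosis were mixed. Of 26 tested, 10 were higher (38.5%, against 26.6% of all genes), 8 lower (30.8%, against 38%) and 2 had probes of both directions, with a median of 0.04. In both fits 6 were higher and 4 lower (16% and 15.4% of all genes), and with the random block 2 and 0. Rab5a, the small GTPase of early endosomes, was 3.26-fold higher in MM (1.71 ± 0.20, adjusted p = 0.000378, 0.00283 without the term and 0.0239 with the block). Gipc1, an adaptor that binds the tail of megalin, was higher by 1.31 ± 0.17 (adjusted p = 0.00138, 0.00318 and 0.0603) and Cltc, the clathrin heavy chain, by 0.77 ± 0.09 (0.0011, 0.00384 and 0.0492). Lrp1, a relative of megalin, was lower (-0.61 ± 0.17, adjusted p = 0.00122, 0.0141 and 0.0743), and Lrpap1, the chaperone of these receptors, was not tested, with 1.17, 0.82 and, on array 4, 0.78. Of 13 tested genes of lipoprotein metabolism, 3 were higher and 5 lower (23.1% and 38.5%), with a median of -0.06 and no gene past 2-fold. The counts were 1 and 2 in both fits, and 0 and 0 with the block.

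Markers of other cells that could carry such RNA into the dissections are given beside these results, and their part in them was not tested. The gut epithelium list also holds genes of epithelia in general, such as Epcam, keratins and claudins, so its counts are not particular to gut. Of its 16 tested genes, 11 were higher (68.8%, against 26.6% of all genes) and 0 lower (against 38%), with a median of 0.48. In both fits 8 were higher and 0 lower, but with the random block only 2 were higher. The higher ones were led by Shh (2.81 ± 1.44, adjusted p = 0.198 with the block), Cldn6 and Epcam (1.87 ± 0.06, adjusted p = 0.000228, 0.00154 without the term and 0.0209 with the block). Epcam read 1.92, 1.93, 1.80 and 1.83, and Cldn6 is also on the yolk sac list. Foxa1 of this list did not pass, and Foxa2 was not tested. Primitive erythroid genes had 3 higher and 5 lower of 11 (27.3% and 45.5%) and a median of -0.18. The counts were 0 and 2 in both fits, and 0 and 0 with the block. The embryonic globin Hbb-bh1 was lower (-0.85 ± 0.13, adjusted p = 0.0726 with the block), and Hbb-y read -0.38, -0.38, 0.68 and 0.71. Endothelial genes had 3 higher and 4 lower of 13 (23.1% and 30.8%, against 26.6% and 38% of all genes). Macrophage genes had 0 higher and 3 lower of 5 (60% lower), and nephric duct genes 1 higher and 3 lower of 6 (16.7% and 50%). In both fits these were 3 and 2, 0 and 2, and 1 and 2, where all genes had 16% and 15.4%. With the block, the kidney cadherin Cdh16 of the nephric duct list (-1.40 ± 0.05, adjusted p = 0.0212) was the single gene of these 3 lists that passed.

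**Figure D4:**
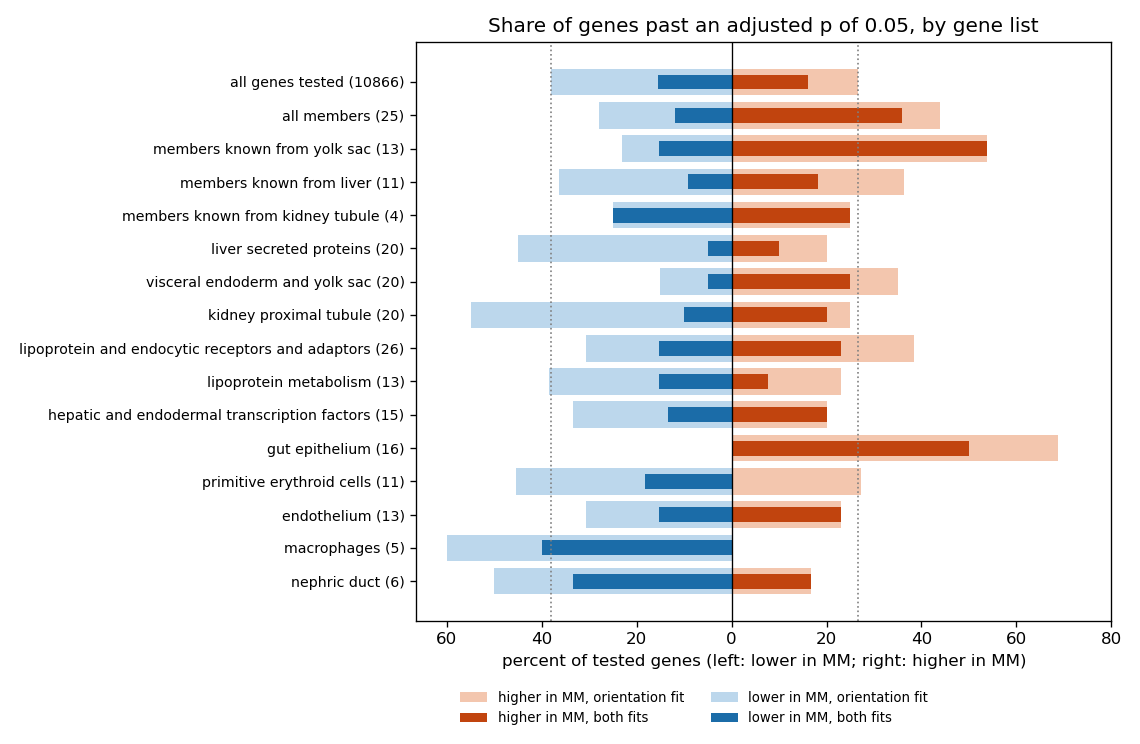
Percent of the tested genes of each list (number tested in brackets) that were higher in MM (right) or lower in MM (left) at an adjusted p of 0.05, with the orientation term (pale bars) and in both fits (dark bars); dotted lines mark the shares over all genes with the term, 26.6% and 38%. Of the lists plotted, which leave out the groups by role, the yolk sac genes among the 35 and the gut epithelium genes reach furthest to the right in both fits; with the random block, not drawn, 5 and 2 of them were higher. The list labelled kidney proximal tubule also holds genes of later tubule segments, and the one labelled gut epithelium also holds genes of epithelia in general.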

How the data were processed

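Per the labels, dissected tissue RNA was amplified and labelled by amino allyl coupling, hybridised to a Mouse Compugen oligonucleotide array and quantified with Imagene 5.5. The deposited values are log2 ratios, which the authors adjusted by a lowess curve (20.0% of the data at each point) applied to the control value, with control values under 10 set to 10, per the labels. For background correction, flags and filters, the method is not given in the sources used here. Log base and floor were read from the values: 98.9% to 100% of ratios under 1 lay on a grid of thousandths in base 2 (tolerance 0.01 thousandths), and the lowest value was log2 of 0.01. No sign was changed.

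Of 22702 probes, 17252 had 1 gene symbol, 156 several and 5294 none; 16800 of the first matched a RefSeq table (GRCm38.p6, used for names, neighbours and promoter sequences). The 14184 probes with a value on all 4 arrays were fitted with limma 3.58.1 in R 4.3.3 (intercept and orientation term; Benjamini-Hochberg over all of them, threshold 0.05). A gene was called by its passing probes and called in both fits where a probe also passed without the orientation term; the random block used a correlation of 0.869. Errors are SDs over the arrays. Every probe of a listed gene was named, and of wider lists up to 3 called genes a direction without a floor value; other genes were named as neighbours, relatives, partners or markers. The script was tested on simulated data. The genes, roles and lists were chosen with earlier results of these data known. The table holds no intensities, so the signal behind missing and floor values could not be checked. The number of arrays also limits the precision.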

Additional observations from a re-analysis of the deposited data

How the results depend on the processing

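The 4 arrays form 1 group of direct comparisons, in which each log2 ratio already pairs MM with IM on the same array. Counts of probes higher and lower in MM, 3371 and 5408 of 14184, fell to 1932 and 2036 without the orientation term and to 505 and 191 with orientation as a random block. Those of listed genes, 11 and 7, were 9 and 3 without the term and 5 and 0 with the block. With each orientation averaged to 1 value, and on arrays 1 and 2 alone, limma called 0 probes and 0 listed genes in either direction; 1526 and 9294 probes, 10 and 26 of them listed probes, had an unadjusted p under 0.05. Leaving out 1 array gave 2191 to 2718 probes higher and 3249 to 4179 lower, and 9 to 13 listed genes higher and 4 to 6 lower; without array 3 or array 4, 4 listed genes were lower, and 3249 or 3425 probes. On the other alternatives (floor values left out, arrays centred, arrays scaled, array weights, at least 3 values, arrays 3 and 4 alone), counts stayed within 1.5 times.

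Of the 12 genes called in both fits, Serpina1a alone lost its call when 1 array was left out. Signs reversed on arrays 1 and 2 alone for Apob (-0.58), Apoe (0.25), Prox1 (1.85), Serpinf2 (-0.01), Trf probe 1 (1.67) and Vil1 (0.33), and on arrays 3 and 4 alone for Apoh (0.12), F2 (-0.02), Mttp (0.10), Pdzk1 (0.09) and Serpinc1 (0.04). Vil1 also reversed with arrays centred (0.03), arrays scaled (0.04), without array 2 (0.00) and without array 3 (0.02), in a range of -0.04 to 0.02 over the arrays left out. The cause was not tested.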
